A study of Mus musculus with 21 samples.

Results

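The genes described here encode the conjugation enzymes of drug and hormone metabolism: the UDP-glucuronosyltransferases (UGT), the cytosolic and microsomal glutathione S-transferases (GST and MGST) and the sulfotransferases (SULT). They were chosen by symbol alone, pseudogenes left out, and number 65 of the 46517 genes in the deposited count table: 21 UGT, 20 GST, 3 MGST and 21 SULT genes. By known tissue distribution they were sorted into 28 liver-type members, 16 broadly expressed members, 13 members typical of other tissues and 8 further genes of the *Ugt1a* locus, which share their last exons with the liver-type member *Ugt1a1*. At least 1 read was counted for 64 of the 65, and *Gstt4* had none in any mouse.

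The RNA came from heart tissue of C57BL/6J mice aged 10 to 14 months, 4 control mice (*Notch3*+/+) and 3 *Notch3*-/- mice. The study's methods for the sequencing do not state which part of the heart was used. The *Notch3*-/- mice lacked the receptor in every cell from conception, because a *lacZ* cassette had been inserted into the gene, so effects in heart, vessels and other organs were not separated in time or by cell type. From each mouse 3 technical libraries of single reads of 51 bases were sequenced, 21 in all, and their counts were summed per mouse. The labels of control mice 3 and 4 and of all 3 *Notch3*-/- mice begin with k and those of control mice 1 and 2 with X; what the letters stand for is not stated, so a label series went partly with genotype. The comparison asked which transcripts differed between hearts with and without Notch3, and it is described here for the conjugation enzymes.

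UGT enzymes sit in the endoplasmic reticulum and move glucuronic acid from UDP-glucuronate onto bilirubin, steroids, bile acids and drugs; GST enzymes join glutathione to electrophiles such as lipid peroxidation products; SULT enzymes transfer sulfate from the donor PAPS (phosphoadenosine phosphosulfate) onto phenols, steroids and bile acids. The full set is a hallmark of hepatocytes, where nuclear factors such as HNF4 and the xenobiotic receptors drive it. The heart is known mainly for GST and MGST enzymes, which protect cardiomyocytes from oxidised lipids.

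The 9 *Ugt1a* genes lie in a row on chromosome 1 (GRCm38), and each joins a first exon of its own to the same later exons, 1311 shared exon bases between 88215044 and 88218997. Reads from the shared exons cannot be assigned to 1 of the 9 genes, so the locus was counted once, as *Ugt1a1*, in every sum given here. The junction is shown for 4 of the genes because reads in the shared exons belong to none of the genes alone. The first-exon bases shown do not mark every gene either, since those of *Ugt1a5* are the same in *Ugt1a2* and those of *Ugt1a6a* the same in *Ugt1a6b*. The last 30 bases of the first exon are in lower case and the first 30 bases of the shared second exon, chr1:88215044-88215073, in capitals. The transcripts are those of GENCODE vM21 on the plus strand, and the first-exon bases shown are chr1:88212842-88212871 for *Ugt1a1*, chr1:88166874-88166903 for *Ugt1a5*, chr1:88139302-88139331 for *Ugt1a6a* and chr1:88071649-88071678 for *Ugt1a9*.
Ugt1a1: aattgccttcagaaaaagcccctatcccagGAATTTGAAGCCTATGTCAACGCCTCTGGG
Ugt1a5: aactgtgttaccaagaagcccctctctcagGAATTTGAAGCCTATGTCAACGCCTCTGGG
Ugt1a6a: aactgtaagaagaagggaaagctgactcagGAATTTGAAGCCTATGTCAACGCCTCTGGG
Ugt1a9: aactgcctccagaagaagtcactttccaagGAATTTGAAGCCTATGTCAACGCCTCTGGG

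Promoter windows from RefSeq (GRCm38.p6), each of 250 bases before and 50 after the annotated start, were found for 57 of the 65 members, 68 windows in all since 10 members had several. Gsta4, Gstt2, Sult2a1, Sult2a2, Sult2a7, Sult4a1, Ugt1a6b and Ugt3a2 had no window in the table. They were searched on both strands for 3 motifs: the antioxidant response element bound by Nrf2 (TGACNNNGC), the HNF4 motif (CAAAGTCCA) and the xenobiotic response element bound by the aryl hydrocarbon receptor (TNGCGTG). The antioxidant response letters occurred in 4 of the 68 windows, those of *Gsta3*, *Gstm5*, *Gstm7* and *Mgst1*, beside 12.4% of all 32851 windows in the table. The HNF4 letters were found in the window of *Sult1b1* and in 0.475% of all windows, and the xenobiotic response letters in those of *Gsta2*, *Sult1d1* and *Ugt1a5* and in 5.07% of all windows. A match describes the letters only.

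The 150 bases upstream of the start are shown for 3 of the members with a match that are described with values in each mouse. They are written 5′ to 3′ on the strand of the gene, with the matched letters in capitals. The other members with a match, *Gsta2*, *Gstm5*, *Gstm7*, *Sult1b1* and *Ugt1a5*, are also described with values but not shown. Another window of *Mgst1* held no match. For *Sult1d1* (chr5:87569007-87569156, minus strand) the capitals mark the xenobiotic response match. For *Gsta3* (chr1:21240435-21240584, plus strand) and *Mgst1* (chr6:138140377-138140526, plus strand) they mark the antioxidant response match.
Sult1d1: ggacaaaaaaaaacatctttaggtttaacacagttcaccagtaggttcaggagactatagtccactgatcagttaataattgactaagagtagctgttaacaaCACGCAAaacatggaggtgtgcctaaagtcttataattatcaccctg
Gsta3: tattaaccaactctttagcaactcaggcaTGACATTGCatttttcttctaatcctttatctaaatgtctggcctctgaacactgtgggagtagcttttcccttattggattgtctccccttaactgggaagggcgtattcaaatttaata
Mgst1: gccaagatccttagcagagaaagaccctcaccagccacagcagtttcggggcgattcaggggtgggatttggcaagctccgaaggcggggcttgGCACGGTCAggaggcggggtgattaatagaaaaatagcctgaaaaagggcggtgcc

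The targeted gene *Notch3* was measured first, as a check of the labels. Levels are given as CPM, counts scaled to library size after TMM normalisation. *Notch3* had 56.95, 41.92, 57.31 and 61.44 CPM in controls 1 to 4 but 5.91, 7.23 and 4.70 CPM in *Notch3*-/- mice 1 to 3. All 3 *Notch3*-/- mice lay far below all 4 controls, and *Notch3* was the single gene of the 14324 tested by edgeR that passed the threshold (log2 fold change -3.16 ± 0.23 SE, edgeR FDR 0.00173), where a call required a fold change of 1.5 or more at an FDR under 0.05. The counts per mouse summed to between 3046326 and 5167869 reads, and the 21 libraries ranged from 464390 to 2427783 with a median of 1244170. In these depths 3 counts corresponded to between 0.581 and 0.985 CPM in a mouse. Since the libraries were amplified by 22 PCR cycles and carried no molecular identifiers, all intervals and floors cover counting error only.

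*Notch3*-/- mice 1 and 2 stood apart from the other 5 mice in genes other than conjugation enzymes. The marker lists were chosen with earlier results of these data known. The 12 hepatocyte markers *Alb*, *Apoa1*, *Apoa2*, *Ttr*, *Cps1*, *Serpina1a*, *Fgb*, *Ahsg*, *Hpx*, *Tat*, *Hpd* and *Cyp2e1* summed to 50.1, 144.4, 11.7 and 24.2 CPM in control mice 1 to 4 and to 5418, 8368 and 130.9 CPM in *Notch3*-/- mice 1 to 3. All 12 were above every control in mouse 1 and in mouse 2, and 7 of 12 were in mouse 3, whose sum lay below that of control mouse 2. Of all tested genes, 22.6%, 25.9% and 20.1% were above every control in *Notch3*-/- mice 1 to 3. *Alb*, encoding serum albumin and the most abundant gene of the list, was counted 68, 385, 10 and 32 times in the controls and 6240, 8913 and 354 times in the *Notch3*-/- mice. It was the only marker of the list with a control mean of at least 10 CPM. The number of the 12 markers without a read was 2, 0, 2 and 3 in the controls, and in the *Notch3*-/- animals no marker was at 0. Of the 11 markers tested by edgeR, 11 were higher at an unadjusted p under 0.05, beside 7.34% of all tested genes. None of the 11 passed the threshold.

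Sums of Kupffer cell and sinusoid markers were highest in the same 2 mice, and in mouse 3 they were also above every control. The 5 Kupffer cell markers, led by *Clec4f*, summed to between 5.66 and 8.63 CPM in controls and to 55.6, 73.1 and 13.9 CPM in *Notch3*-/- mice 1 to 3. The 3 markers of liver sinusoid endothelium present in the table, led by *Stab2*, summed to between 2.29 and 5.24 CPM in controls and to 33.6, 54.1 and 5.83 CPM in *Notch3*-/- mice. The 5 cholangiocyte markers, led by *Spp1*, were low throughout, at most 6.78 CPM in a control and 6.98, 24.1 and 9.03 CPM in the *Notch3*-/- mice. The kidney markers, led by *Aqp2*, were near 0, with *Umod* and *Slc34a1* not counted in any mouse and the list of 5 at most 0.838 CPM. The 5 intestine markers reached 3.32 CPM in a control and 3.76, 44.4 and 0.94 CPM in *Notch3*-/- mice; in *Notch3*-/- mice 1 and 2 *Fabp2*, which liver also expresses, gave 13 and 221 of the reads. The 4 lung markers, led by *Scgb1a1*, did not exceed 6.92 CPM, and the 4 adipocyte markers, led by *Cfd*, did not exceed 5.98 CPM in any mouse.

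The cardiac label was checked against heart markers. The 6 cardiomyocyte markers, of which *Ttn* was the most abundant, summed to 24773, 17827, 20896 and 23786 CPM in controls and to 24456, 15485 and 17471 CPM in *Notch3*-/- mice 1 to 3, with none at 0. The 4 vascular smooth muscle markers, led by *Acta2*, summed to between 111.1 and 234.3 CPM in controls and to 274.8, 56.7 and 129.6 CPM in *Notch3*-/- mice. *Acta2* carried that sum. Of the 3 tested markers *Myh11* and *Tagln* were lower at an unadjusted edgeR p under 0.05, beside 3.05% of all tested genes. *Myh11*, the smooth muscle myosin, had 39.6, 20.3, 10.5 and 19.6 CPM in controls and 3.22, 4.82 and 3.57 CPM in *Notch3*-/- mice, below every control (log2 fold change -2.49 ± 0.45 SE, edgeR FDR 0.118). *Tagln* had 33.4, 18.2, 15.7 and 29.6 CPM in controls and 8.59, 17.5 and 10.7 CPM in *Notch3*-/- mice (log2 fold change -0.93, edgeR FDR 0.396). The part of the hepatocyte, Kupffer, sinusoid and smooth muscle transcripts in the differences of conjugation enzymes described next was not tested, nor was whether liver tissue had been carried into the samples of mice 1 and 2. For the genes named below, differences that rest on these 2 mice are mostly given with a value of mouse 3 beside them. In bulk tissue fewer cells of a type and less RNA per cell cannot be told apart.

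Liver-type conjugation enzymes had a higher summed level in *Notch3*-/- mice 1 and 2 than in the other 5 mice. The 28 liver-type members summed to 40.6, 52.6, 39.3 and 27.2 CPM in controls 1 to 4, a mean of 39.9 ± 10.4 (SD, n = 4). They summed to 905.3, 2395 and 42.7 CPM in *Notch3*-/- mice 1 to 3. Against the control mean these sums were 22.7-fold, 60.0-fold and 1.07-fold, so mouse 3 lay inside the control range. The technical libraries, normalised as 21 separate libraries and so on a slightly different scale from the sums per mouse, kept these levels apart: 15.0 to 64.1 CPM in the 12 control libraries, 835.6 to 985.8 CPM in mouse 1, 2212 to 2375 CPM in mouse 2 and 39.6 to 44.4 CPM in mouse 3.

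The 16 broadly expressed members differed by less. Their sum was 1676, 1345, 1568 and 1446 CPM in the controls (mean 1509 ± 143.9 SD, n = 4) and 1713, 2135 and 1307 CPM in *Notch3*-/- mice 1 to 3 (mean 1718 ± 413.6 SD, n = 3), so mice 1 and 2 lay above every control and mouse 3 below every control. Liver-type members made up between 1.84% and 3.75% of all conjugation enzyme transcripts in controls, and 34.2%, 50.8% and 3.15% in the 3 *Notch3*-/- animals. By family, the UGT sum moved most: it was between 3.65 and 19.3 CPM in controls and 534.4, 1797 and 9.97 CPM in *Notch3*-/- mice 1 to 3. The SULT sum was between 54.3 and 83.0 CPM in controls and 298.2, 391.2 and 59.8 CPM in *Notch3*-/- mice. The GST sum was between 1020 and 1239 CPM in controls and 1375, 1892 and 1015 CPM in *Notch3*-/- mice, and the MGST sum between 280.2 and 396.0 CPM and 442.6, 630.1 and 271.9 CPM.

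**Figure D1:**
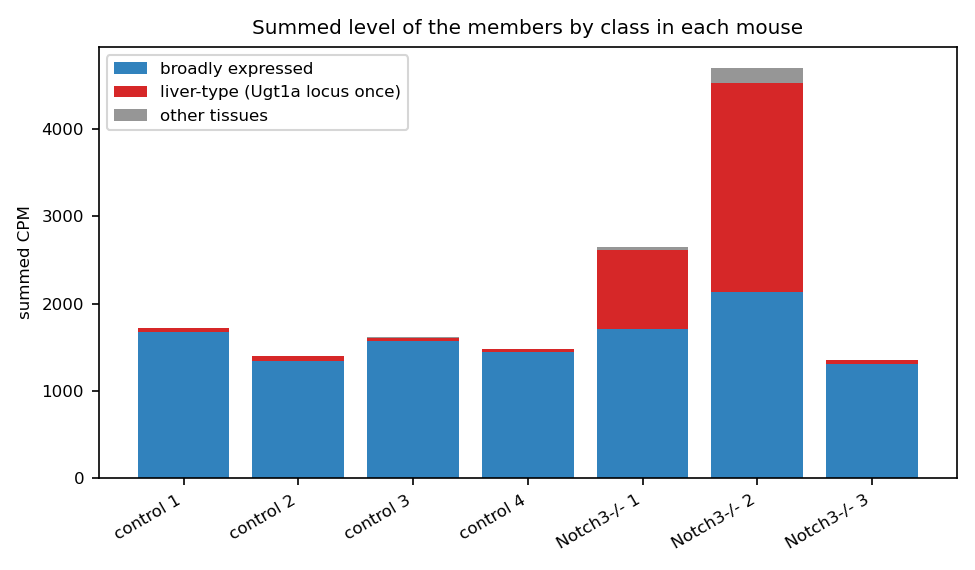
Stacked bars of the summed CPM of broadly expressed, liver-type and other-tissue conjugation enzymes in each of the 7 mice, with the *Ugt1a* locus counted once. The liver-type segments of *Notch3*-/- mice 1 and 2 (905.3 and 2395 CPM) exceed those of the controls (27.2 to 52.6 CPM), and that of *Notch3*-/- mouse 3 (42.7 CPM) lies among them.

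Detection followed the same division. At 1 CPM or more in all 4 controls were 15 of the 16 broadly expressed members but 4 of the 28 liver-type members, namely *Gsta1*, *Gsta3*, *Gstt3* and *Ugt1a1*. Of the liver-type members, 9 had no read in any control and 17 had at most 3 counts over all 4 controls. The number of liver-type members at 1 CPM or more was 4, 8, 6 and 4 in controls 1 to 4, and 25, 19 and 7 in the *Notch3*-/- animals 1 to 3. For broadly expressed members it was 16, 16, 15 and 15 in controls and 14, 15 and 15 in *Notch3*-/- mice.

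Few liver-type members could be tested across all 7 mice. The edgeR filter on low counts kept 29 of the 65 members: 15 broadly expressed, 5 liver-type (*Gsta1*, *Gsta3*, *Gstt3*, *Sult5a1* and *Ugt1a1*), 1 of other tissues (*Gstm6*) and the 8 further *Ugt1a* genes. By edgeR 0 of the 29 were called higher in *Notch3*-/- hearts, where 0% of all 14324 tested genes were, and 0 were called lower, where 0.00698% were (1 gene, *Notch3*). At an unadjusted p under 0.05, edgeR had 16 of the 29 higher, beside 7.34% of all tested genes, and 1 lower, *Mgst3*, beside 3.05% of all. With the *Ugt1a* locus counted once, the higher count was 8 of 21.

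Of the other tools and sets of mice, some gave calls and most gave none. No member was called by limma-voom on the counts summed per mouse, nor by edgeR with RLE factors, with a mean of at least 10 counts as the filter, or without any 1 of the 4 controls or *Notch3*-/- mice 1 and 2. DESeq2, run on the same summed counts, gave an adjusted p to 45 members and called 22 higher, beside 3.37% of all 17013 genes with an adjusted p. They were 11 of 19 liver-type members, 3 of 3 of other tissues, the 8 further *Ugt1a* genes and 0 of 15 broadly expressed members. Of the 11 and the 3, 3 and 1 were among the members tested by edgeR with all 7 mice. At an unadjusted p under 0.05 DESeq2 had 29 higher and 1 lower of the 61 members with a p-value, beside 5.06% and 1.65% of all genes, and 16 of the 29 higher were among those tested by edgeR. Without the filter on low counts edgeR called 26 of 64 higher, beside 2.18% of all genes. Without *Notch3*-/- mouse 3, edgeR tested 41 members and called 27 higher, beside 6.02% of all genes. Of these 41, 12 had failed the filter with all 7 mice and passed it here through the 2 *Notch3*-/- mice in which they were high, so the calls of 11 of these 12 are no support. Of the 29 members also tested with all 7 mice, 16 were called: 3 of 5 liver-type members, 4 of 15 broadly expressed members, *Gstm6* and the 8 further *Ugt1a* genes. Of the 22 called by DESeq2 and the 26 called without a filter, 12 and 13 were among these 29. The calls of the other 10 and 13, in members that had failed the filter, are likewise no support.

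With *Notch3*-/- mouse 3 alone against the 4 controls, a comparison added after the data had been seen, edgeR called 0 of 29 members, and at an unadjusted p under 0.05 it had 0 higher, beside 2.44% of all genes, and 1 lower, *Gstm2*, beside 2.72%. In that fit the lone mouse was assumed to vary like the controls. Among the mice labelled k alone, 2 controls and 3 *Notch3*-/- mice, edgeR called 0 of 41 members higher (0% of all genes), and 22 were higher at an unadjusted p under 0.05, beside 5.01% of all genes. Of those 22, 11 were among the 29 members tested with all 7 mice: 3 liver-type members and the 8 further *Ugt1a* genes. The other 11 had entered through the *Notch3*-/- mice in which they were high. With the *Ugt1a* locus counted once, 14 of 33 members were higher at that p.

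The middle of each class gave the same contrast as a description. The median log2 fold change was 2.15 over the 5 liver-type members tested, 0.18 over the 15 broadly expressed members tested and -0.0028 over all tested genes. The 5 that passed the filter are not the class, so the median was also taken over all members with those at 0 in controls set to their lower bound: it was 4.58 for the liver-type class, with 9 of 28 at their bound and 1 without a fold, and 0.02 for the broadly expressed class. With *Notch3*-/- mouse 3 alone the median of the 5 liver-type members was 0.02 and that of the 15 broadly expressed members -0.30.

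Members were also compared mouse by mouse. Of the 29 tested members, 0 were above all 4 controls in all 3 *Notch3*-/- mice, beside 4.16% of all tested genes, and 2 were below, *Gstm5* and *Gstm7*, beside 4.42%. Mouse 1 had 19 of the 29 above every control (22.6% of all tested genes), mouse 2 had 22 (25.9%) and mouse 3 had 0 (20.1%). The counts of mouse 1 and of mouse 2 each include the 8 further *Ugt1a* genes, which repeat the reads of *Ugt1a1* in large part. Over all 65 members, tested or not, the counts in mice 1 to 3 were 44, 43 and 4, beside 12.8%, 15% and 10.8% of all 46517 genes, and the 4 in mouse 3 were liver-type.

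**Figure D2:**
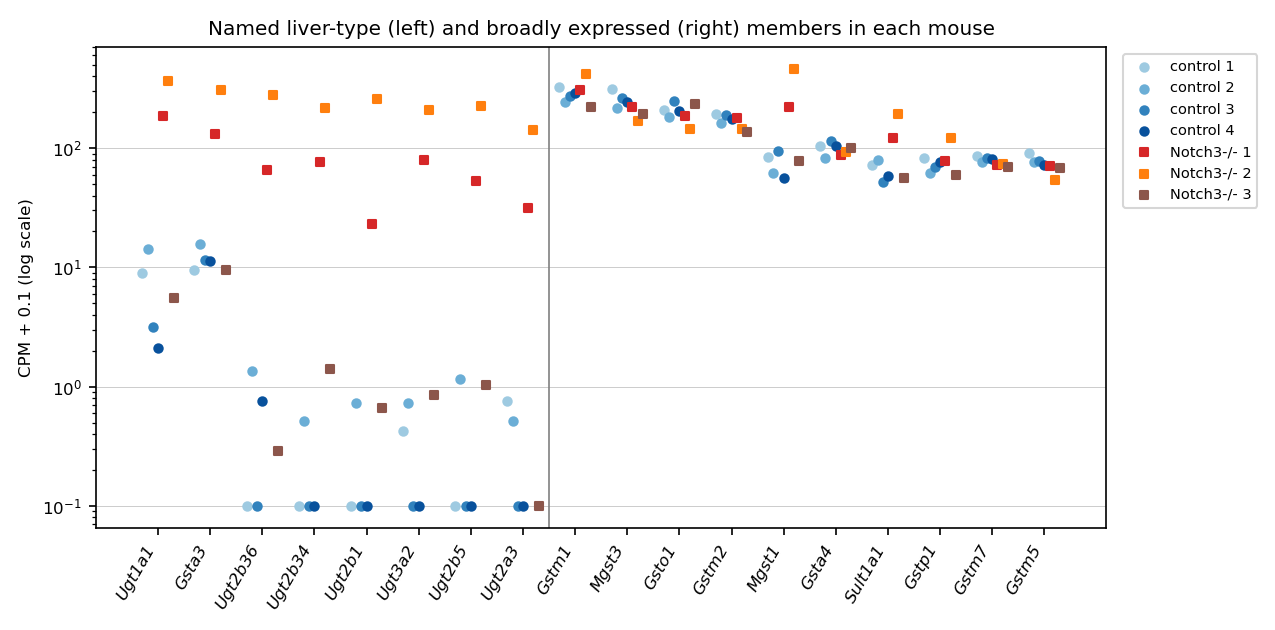
CPM plus 0.1 on a log axis of the 8 named liver-type members (left) and the 10 named broadly expressed members (right), with 1 point per mouse, circles for controls and squares for *Notch3*-/- mice. The liver-type members are high in *Notch3*-/- mice 1 and 2 and at most 15.5 CPM in the other 5 mice, whereas the broadly expressed members overlap between most mice.

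The liver-type UGT2 enzymes conjugate steroids, bile acids and drugs, and UGT3 enzymes use other sugars than glucuronic acid; none of these genes passed the filter on low counts with all 7 mice. *Ugt2b36* (ENSMUSG00000070704, chr5:87065927-87092555) was counted 0, 6, 0 and 2 times in controls 1 to 4, and 246, 1386 and 1 times in the *Notch3*-/- animals 1 to 3. *Ugt2b34* (ENSMUSG00000029260, chr5:86889767-86906937) was counted 0, 2, 0 and 0 times in controls and 286, 1089 and 7 times in *Notch3*-/- mice. Both were thus abundant in *Notch3*-/- mice 1 and 2 and were read at most 7 times in any other mouse. From pooled counts *Ugt2b34* was 735.2-fold the controls, with an exact Clopper-Pearson 95% interval of 203.1 to 6077. In mouse 3 alone it was 10.3-fold, on 7 reads of which 6 came from 1 library. Both control reads came from 1 library of control mouse 2.

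*Ugt2b1* (ENSMUSG00000035836), with no 51-base window shared with another gene, was counted 0, 3, 0 and 0 times in controls and 86, 1276 and 3 times in *Notch3*-/- mice. Its pooled ratio was 484.1 with an exact 95% interval of 165.3 to 2351, and mouse 3 alone, with 3 reads as in the controls, gives no fold. *Ugt2b5* (ENSMUSG00000054630) was counted 0, 5, 0 and 0 times in controls and 197, 1130 and 5 times in *Notch3*-/- mice. For *Ugt2b5* 41.2% of its 51-base windows also occur in other genes, so part of its reads could belong to relatives. *Ugt2a3* (ENSMUSG00000035780) was counted 2, 2, 0 and 0 times in controls and 117, 704 and 0 times in *Notch3*-/- mice.

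The 2 UGT3 genes on chromosome 15 followed the same course. *Ugt3a2* (ENSMUSG00000049152) was counted 1, 3, 0 and 0 times in controls and 293, 1047 and 4 times in *Notch3*-/- mice. *Ugt3a1* (ENSMUSG00000072664) was counted 0, 2, 2 and 1 times in controls and 54, 364 and 4 times in *Notch3*-/- mice. In all these genes *Notch3*-/- mouse 3 had few reads like the controls, so too few mice reached the count the filter required. The highest control in CPM was mouse 2 in *Ugt2b36*, *Ugt2b34*, *Ugt2b1*, *Ugt2b5* and *Ugt3a2*, mouse 1 in *Ugt2a3* and mouse 3 in *Ugt3a1*. These control levels rest on at most 6 reads in a mouse. Control mouse 2 had the highest hepatocyte marker sum and also the most reads of the controls, 4638786.

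The *Ugt1a* locus, whose product UGT1A1 conjugates bilirubin, was read at a low level in control hearts. As *Ugt1a1* (ENSMUSG00000089960) it had 8.84, 14.04, 3.04 and 1.99 CPM in control mice 1 to 4 and 184.1, 367.7 and 5.45 CPM in *Notch3*-/- mice 1 to 3. *Notch3*-/- mice 1 and 2 were above every control, and mouse 3 was inside the control range. The log2 fold change was 4.73 ± 1.07 SE with an edgeR FDR of 0.165, so it did not pass the threshold. Without *Notch3*-/- mouse 3 it was 5.29 (edgeR FDR 0.000146), and with mouse 3 alone -0.38 (edgeR FDR 0.973). Within the controls *Ugt1a1* was highest in mouse 2, which also had the highest hepatocyte marker sum, while the lowest *Ugt1a1* level, in mouse 4, did not go with the lowest marker sum, in mouse 3.

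The genes with the smallest p of the locus besides *Ugt1a1* repeat its reads in large part. *Ugt1a5* had 8.84, 13.8, 3.04 and 1.99 CPM in controls and 161.3, 337.6 and 5.45 CPM in *Notch3*-/- mice. *Ugt1a9* had the same control values and 142.5, 400.3 and 5.45 CPM in *Notch3*-/- mice, and *Ugt1a2* had 8.84, 13.6, 3.04 and 1.99 CPM in controls and 140.6, 301.0 and 5.45 CPM in *Notch3*-/- mice. Their log2 fold changes of 4.60, 4.72 and 4.44 had an edgeR FDR of 0.165 each.

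The counts of the 9 genes differed by what fell outside the shared exons. In *Notch3*-/- mouse 1 the lowest count of the 9 was 522 and the highest 686, and in mouse 2 they were 1498 and 1992. Above that lowest count, *Ugt1a1* had 164 reads in mouse 1 and 332 in mouse 2. *Ugt1a9* had 9 reads above it in mouse 1 and 494 in mouse 2, so the first exon with the most excess reads was that of *Ugt1a1* in mouse 1 and that of *Ugt1a9* in mouse 2. *Ugt1a5* had 79 and 182, *Ugt1a6a* had 22 and 107 and *Ugt1a7c* had 12 and 80. In controls no gene exceeded the lowest count by more than 10 reads, so the first exons in use could not be read there at this depth. The deposited sources do not state how reads in shared exons were counted, and the excess is given as counted.

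**Figure D3:**
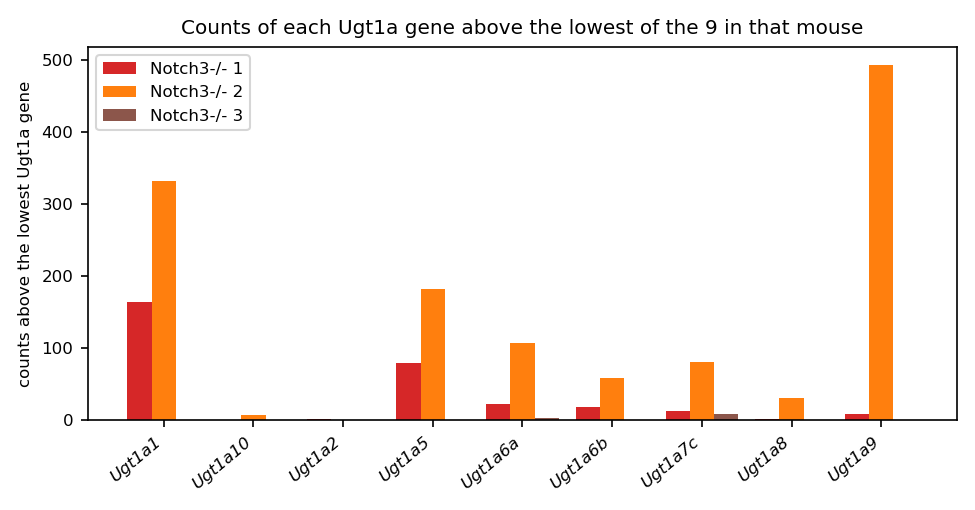
Counts of each *Ugt1a* gene above the lowest count among the 9 genes, as bars for the 3 *Notch3*-/- mice. In *Notch3*-/- mouse 1 *Ugt1a1* leads with 164 reads, in *Notch3*-/- mouse 2 *Ugt1a9* leads with 494, and no gene exceeds 9 in *Notch3*-/- mouse 3.

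Among liver-type GST genes, *Gsta3* (ENSMUSG00000025934, chr1:21240589-21265661), an alpha-class enzyme that conjugates aflatoxin epoxide in mouse liver, was present in every heart. It had 9.49, 15.5, 11.5 and 11.3 CPM in control mice 1 to 4 and 132.1, 307.8 and 9.40 CPM in *Notch3*-/- mice 1 to 3. *Notch3*-/- mouse 3 lay just below the lowest control and the other 2 *Notch3*-/- mice far above the highest. With a log2 fold change of 3.68 ± 0.82 SE (edgeR FDR 0.163) it was not called. It was 4.22 without *Notch3*-/- mouse 3 (edgeR FDR 3.05e-05) and -0.35 with mouse 3 alone (edgeR FDR 0.934).

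*Gstt3* (ENSMUSG00000001665), a theta-class enzyme, had 15.1, 6.497, 10.8 and 8.30 CPM in controls and 56.9, 63.9 and 10.2 CPM in *Notch3*-/- mice, with mouse 3 again among the controls. The log2 fold change of *Gstt3* was 2.15 ± 0.54 SE (edgeR FDR 0.194), and 0.02 with mouse 3 alone. *Gsta1* had 4.26, 6.497, 9.59 and 3.65 CPM in controls and 3.22, 19.9 and 9.03 CPM in *Notch3*-/- mice, so it was high in mouse 2 alone. *Gsta1* shares 90.3% of its 51-base windows with other genes, chiefly its neighbours, which limits what its count says of the single gene. *Gsta2* was counted 2, 9, 9 and 1 times in controls and 10, 73 and 6 times in *Notch3*-/- mice, and was not tested across all 7 mice.

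The liver-type SULT genes divided *Notch3*-/- mice 1 and 2 from each other. *Sult2a8* (ENSMUSG00000030378), a bile acid sulfotransferase of liver, was counted 0, 1, 1 and 0 times in controls and 105, 694 and 3 times in *Notch3*-/- mice 1 to 3. *Sult1d1* (ENSMUSG00000029273), which acts on catecholamines, was counted 0, 0, 1 and 0 times in controls and 85, 157 and 1 times in *Notch3*-/- mice. *Sult1b1*, which acts on thyroid hormones, was not read in any control and was counted 9, 77 and 0 times, at least 30.5-fold higher against a floor of 3 counts over the control group, with no read in mouse 3. These 3 genes were higher in mouse 2 than in mouse 1. For *Sult1d1* the technical libraries overlapped, at 15.93 to 25.35 CPM in mouse 1 and 19.29 to 44.74 CPM in mouse 2. Of its 157 reads in mouse 2, 88 came from 1 library.

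The hydroxysteroid sulfotransferases *Sult2a1* to *Sult2a6* and the amine sulfotransferase *Sult3a1* went the other way, an observation made after their values had been seen. *Sult2a1* (ENSMUSG00000078798, chr7:13796246-13837409) was counted 1, 0, 0 and 0 times in controls and 229, 0 and 0 times in *Notch3*-/- mice 1 to 3. In the 3 technical libraries of *Notch3*-/- mouse 1 it had 83, 97 and 49 reads, so the signal was not that of 1 library. *Sult2a2* had 107 reads, *Sult2a3* 53, *Sult2a5* 28, *Sult3a1* 8 and *Sult2a6* 7 in mouse 1, and these 5 genes had none in any other mouse. *Sult2a4* had 8 in mouse 1 and 1 in mouse 2. In mouse 1 *Sult2a1* was at least 103-fold higher than in mouse 2, *Sult2a2* at least 48.1-fold and *Sult2a3* at least 23.9-fold, each against a floor of 3 counts in mouse 2. The sequences overlap in part, with 32.6% of the 51-base windows of *Sult2a1*, 61.5% of *Sult2a2*, 34.1% of *Sult2a5*, 24.5% of *Sult2a4* and 7.75% of *Sult2a3* also found in other genes.

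Over the liver-type class, 24 members had at least 10 counts in these 2 mice together: 18 were higher in mouse 2 and 6 in mouse 1, *Sult2a1*, *Sult2a2*, *Sult2a3*, *Sult2a5*, *Sult2a7* and *Ugt2b37*. The median ratio of mouse 2 to mouse 1 was 4.17 over those of the 24 read in both mice. It left out *Sult2a1*, *Sult2a2*, *Sult2a3* and *Sult2a5*, without a read in mouse 2, and *Ugt2b38*, without a read in mouse 1. Ranked over all 24, the middle lay lower, between *Ugt3a2* at 2.65 and *Ugt2b34* at 2.82. The median ratio was 1.15 over 15 broadly expressed members and 1.63 over the 12 hepatocyte markers, which ran from 1.06 for *Alb* to 2.56 for *Cps1*. *Sult2a7* had 6 reads in each of the 2 mice and was higher in mouse 1 in CPM only, within counting error. *Ugt2b37* had 23 reads in mouse 1, 18 of them in 1 library, and 3 in mouse 2. On the other side *Ugt2b35* was counted 3 times in mouse 1, in 1 library, and 94 times in mouse 2, and *Ugt2b1* was 11.0-fold higher in mouse 2 (exact 95% interval 8.83 to 13.8).

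The same 2 mice differed in sex-linked transcripts, although the labels give no sex. *Xist*, which coats the inactive X chromosome in females, was counted 25, 1128, 2 and 3 times in controls 1 to 4, and 1729, 5 and 3 times in the *Notch3*-/- animals 1 to 3. The Y-linked gene *Ddx3y* was counted 358, 4, 552 and 288 times in controls and 1, 636 and 705 times in *Notch3*-/- mice. *Eif2s3y*, also Y-linked, was counted 332, 2, 487 and 321 times in controls and 2, 501 and 723 times in *Notch3*-/- mice. Control mouse 2 and *Notch3*-/- mouse 1 thus had high *Xist* and few Y-linked reads, and the other 5 mice the reverse. In mouse liver *Sult2a1*, *Sult2a2* and *Sult3a1* are known to be expressed mainly in females. *Sult2a8* had more reads in mouse 2. With 1 such mouse in each group, the part of sex in the difference between the 2 *Notch3*-/- mice was not tested.

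**Figure D4:**
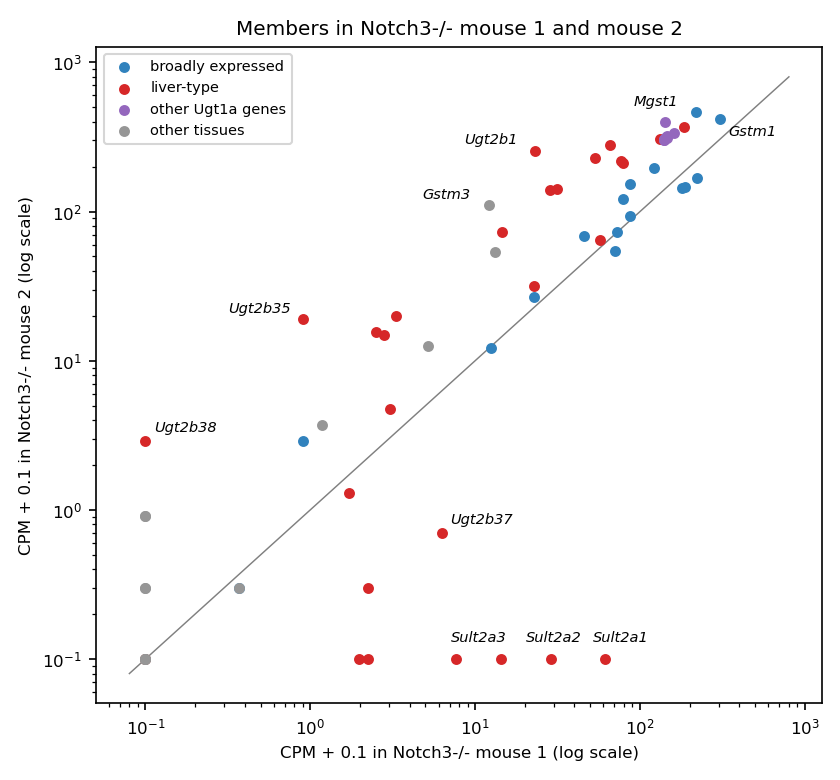
CPM plus 0.1 of each conjugation enzyme in *Notch3*-/- mouse 1 (x) against *Notch3*-/- mouse 2 (y) on log axes, coloured by class, with the line of equal levels. *Sult2a1*, *Sult2a2* and *Sult2a3* lie at the bottom, read in mouse 1 and not in mouse 2, and *Ugt2b1*, *Ugt2b35* and *Gstm3* lie well above the line.

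Members sorted as typical of other tissues were mostly silent, but the sum of the class followed the liver-type division. It was between 3.27 and 7.64 CPM in controls and 31.7, 181.6 and 6.39 CPM in *Notch3*-/- mice 1 to 3. The class name thus describes the sorting by known tissue distribution, not these levels. *Gstm3*, a mu-class GST, was counted 0, 3, 0 and 0 times in controls and 45, 547 and 3 times in *Notch3*-/- mice 1 to 3. *Gstm6*, its neighbour on chromosome 3, had 1.64, 2.31, 2.57 and 5.65 CPM in controls and 13.2, 53.5 and 5.08 CPM in *Notch3*-/- mice, the same division as in the liver-type class. For *Gstm6* the log2 fold change was 3.04 ± 0.75 SE (edgeR FDR 0.182), and 3.53 without *Notch3*-/- mouse 3 (edgeR FDR 0.00362). *Gstp3*, a pi-class GST, was counted 1, 0, 0 and 1 times in controls and 19, 62 and 1 times in *Notch3*-/- mice. *Sult1c2*, an aryl sulfotransferase, had no control read and 4, 18 and 0 reads in *Notch3*-/- mice. *Sult6b2* had 0, 4, 2 and 0 reads in controls and 0, 1 and 2 in *Notch3*-/- mice, and the 8 remaining members had at most 4 reads in any mouse.

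In the control heart the conjugation enzymes ranked as follows per kilobase of exon. *Mgst3*, a membrane enzyme that reduces lipid peroxides and makes leukotriene conjugates, was first with 234.8 ± 35.8 CPM per kb (SD, n = 4), and the mu-class enzyme *Gstm1* second with 192.7 ± 23.5 CPM per kb, with overlapping ranges of the 4 mice. *Gstm2* (107.0 ± 8.39) and the omega-class thiol transferase *Gsto1* (103.9 ± 13.5) followed at levels per kb that did not differ beyond their spread. *Gsta4*, which conjugates the lipid peroxidation product hydroxynonenal, had 80.3 ± 10.5 CPM per kb. *Gstm5*, *Gstm7*, *Gstp1*, *Sult1a1*, *Mgst1* and *Gstt1* lay between 62.0 and 32.4 CPM per kb, and from *Gstm7* on each neighbouring pair differed by less than 1 SD of one of its members. The highest liver-type level per kb in controls was that of *Gsta1*, 6.28 ± 2.81 CPM per kb, in position 14. *Mgst2*, the low member of the broadly expressed class, had at most 6 counts in any mouse and was not tested.

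None of the leading heart-expressed members passed the edgeR test with all 7 mice. *Mgst3* (ENSMUSG00000026688) had 309.9, 216.7, 260.6 and 243.1 CPM in control mice 1 to 4 and 222.8, 168.4 and 194.3 CPM in *Notch3*-/- mice 1 to 3. Of the *Notch3*-/- mice, 2 lay below every control and mouse 1 lay between the lowest and the second-lowest. The log2 fold change was -0.38 ± 0.15 SE with an unadjusted edgeR p of 0.031 and an FDR of 0.426, and it was -0.40 with mouse 3 alone (edgeR FDR 0.885). *Gstm1* (ENSMUSG00000058135) had 326.6, 243.1, 275.6 and 289.9 CPM in controls and 305.7, 414.5 and 222.7 CPM in *Notch3*-/- mice, a log2 fold change of 0.18 ± 0.20 SE (edgeR FDR 0.806). The direction of *Gstm1* rested on *Notch3*-/- mouse 2, without which it was -0.09.

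Of the 2 members below all controls in all 3 *Notch3*-/- mice, *Gstm7* had 86.4, 76.5, 83.0 and 80.4 CPM in controls and 72.5, 73.3 and 69.6 CPM in *Notch3*-/- mice. *Gstm5*, a mu-class GST sorted here as broadly expressed although best known from brain and testis, had 91.0, 76.5, 77.9 and 71.7 CPM in controls and 70.6, 54.3 and 67.9 CPM in *Notch3*-/- mice. Neither passed the test, with log2 fold changes of -0.16 ± 0.12 SE (edgeR FDR 0.694) for *Gstm7* and -0.28 ± 0.15 SE (edgeR FDR 0.539) for *Gstm5*. *Gstm2*, on the same chromosome, had 192.4, 161.6, 189.0 and 175.3 CPM in controls and 180.1, 144.7 and 135.2 CPM in *Notch3*-/- mice, overlapping through mouse 1. *Gsto1* had 209.5, 181.1, 246.8 and 203.2 CPM in controls and 186.5, 145.5 and 233.9 CPM in *Notch3*-/- mice. *Gsta4* had 104.1, 83.2, 114.9 and 104.3 CPM in controls and 87.0, 92.6 and 100.8 CPM in *Notch3*-/- mice. Their log2 fold changes were -0.13 (edgeR FDR 0.83) and -0.09 (edgeR FDR 0.868), within the spread of the mice. That of *Gsto1* was 0.01 without *Notch3*-/- mouse 2 and 0.16 with mouse 3 alone.

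A few broadly expressed members followed the liver-type pattern. *Mgst1* (ENSMUSG00000008540), the microsomal GST of endoplasmic reticulum and mitochondria, had 84.4, 62.3, 94.3 and 56.1 CPM in control mice 1 to 4 and 219.6, 461.6 and 77.1 CPM in *Notch3*-/- mice 1 to 3. The first 2 *Notch3*-/- mice were above every control, and mouse 3 was within the control range. The log2 fold change was 1.81 ± 0.48 SE (edgeR FDR 0.206), 2.23 without *Notch3*-/- mouse 3 (edgeR FDR 0.000877) and 0.05 with mouse 3 alone. *Sult1a1*, the main phenol sulfotransferase, had 72.0, 78.6, 51.5 and 58.8 CPM in controls and 120.8, 194.5 and 56.2 CPM in *Notch3*-/- mice. The log2 fold change of *Sult1a1* was 0.96 ± 0.35 SE (edgeR FDR 0.376), 1.31 without *Notch3*-/- mouse 3 (edgeR FDR 0.00629) and -0.21 with mouse 3 alone.

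*Gstt1*, a theta-class GST, had 54.7, 45.1, 50.5 and 47.5 CPM in controls and 87.2, 153.5 and 38.9 CPM in *Notch3*-/- mice, with mouse 3 below every control. It had a log2 fold change of 0.95 ± 0.37 SE (edgeR FDR 0.411), and 1.32 without *Notch3*-/- mouse 3 (edgeR FDR 0.0047). *Gstm4* had a log2 fold change of 0.73 ± 0.25 SE (edgeR FDR 0.343) and 0.94 without mouse 3 (edgeR FDR 0.0406). These 4, *Mgst1*, *Sult1a1*, *Gstt1* and *Gstm4*, were the broadly expressed members called without *Notch3*-/- mouse 3. *Gstp1*, the pi-class GST, had 82.8, 61.8, 69.7 and 76.1 CPM in controls and 78.4, 121.6 and 58.9 CPM in *Notch3*-/- mice, a log2 fold change of 0.28 (edgeR FDR 0.729) that was -0.07 without mouse 2. *Gstp2*, *Gstt2* and *Gsto2* were low, and their log2 fold changes of 0.50, 0.63 and -0.35 did not pass the edgeR threshold.

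**Figure D5:**
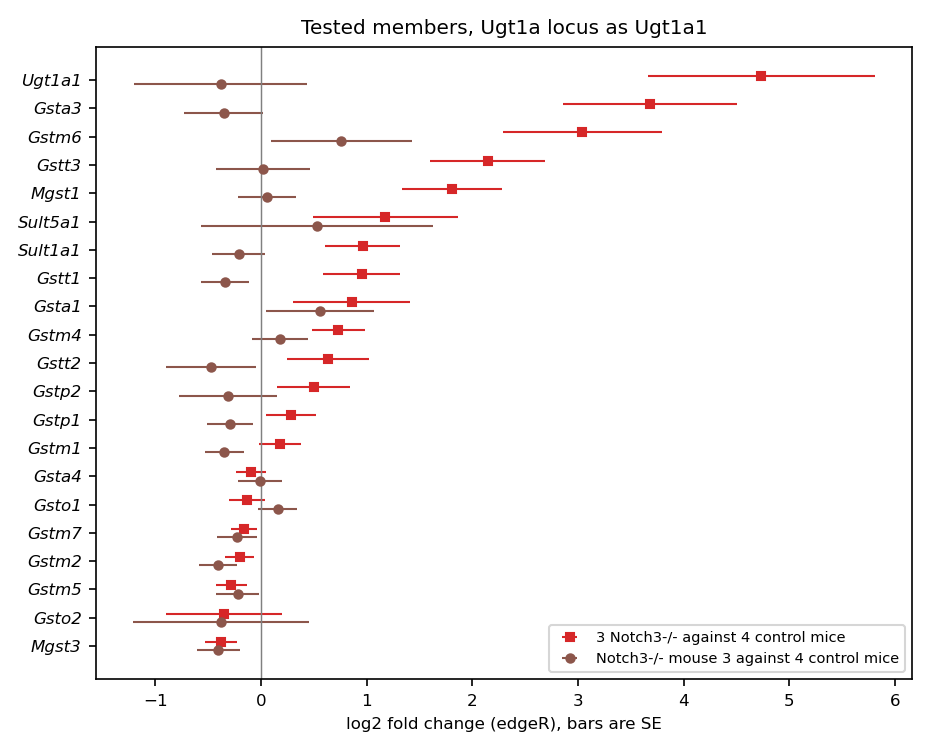
Log2 fold change (edgeR) of 21 tested members, the *Ugt1a* locus as *Ugt1a1*, with all 3 *Notch3*-/- mice (squares) and with *Notch3*-/- mouse 3 alone (circles) against the 4 controls; bars are SE. *Gsta3* is at 3.68 and -0.35 in the 2 fits, whereas *Mgst3* is at -0.38 and -0.40.

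The cofactors of conjugation are made by enzymes outside the families, and lists of these were examined in the same way. In none of the lists did edgeR call a gene with all 7 mice, so the counts that follow are at an unadjusted p under 0.05, which 7.34% of all tested genes passed as higher and 3.05% as lower. For glutathione supply, 12 of 13 genes were tested, 6 were higher and 1 lower. *Mat1a*, the liver form of methionine adenosyltransferase, was counted 2, 31, 0 and 1 times in controls and 2271, 5804 and 18 times in *Notch3*-/- mice 1 to 3. *Cbs*, which opens the route from homocysteine to cysteine, was counted 2, 19, 1 and 4 times in controls and 485, 2118 and 7 times in *Notch3*-/- mice. *Cth*, which completes that route, had 5.24, 7.55, 4.91 and 7.64 CPM in controls and 107.9, 224.4 and 4.14 CPM in *Notch3*-/- mice. All 3 were high in *Notch3*-/- mice 1 and 2 alone, with edgeR FDR of 0.118, 0.133 and 0.156.

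For the sulfate donor PAPS, 7 of 7 genes were tested, 3 were higher and 0 lower. The sulfate transporter *Slc26a1* had 4.91, 3.77, 5.38 and 7.31 CPM in controls and 54.2, 131.2 and 7.52 CPM in *Notch3*-/- mice (log2 fold change 3.65, edgeR FDR 0.126). The PAPS synthase *Papss2* had 37.3, 32.1, 37.4 and 39.5 CPM in controls and 114.6, 135.6 and 33.9 CPM in *Notch3*-/- mice (log2 fold change 1.41, edgeR FDR 0.214). *Bpnt1*, which clears the spent donor, had 38.6, 59.9, 43.0 and 53.5 CPM in controls and 74.6, 84.2 and 55.1 CPM in *Notch3*-/- mice (log2 fold change 0.57, edgeR FDR 0.362). For UDP-glucuronate, 4 of 4 genes were tested, 2 were higher and 0 lower. *Ugdh*, which makes UDP-glucuronate, had 27.5, 24.5, 24.3 and 15.3 CPM in controls and 56.9, 204.8 and 19.2 CPM in *Notch3*-/- mice (log2 fold change 2.07, edgeR FDR 0.277). The nucleotide sugar transporter *Slc35d2* had 2.29, 2.52, 2.57 and 3.99 CPM in controls and 12.6, 29.9 and 1.504 CPM in *Notch3*-/- mice (log2 fold change 2.41, edgeR FDR 0.29). Its relative *Slc35d1* had 15.7, 18.2, 25.0 and 16.3 CPM in controls and 20.4, 49.4 and 16.9 CPM in *Notch3*-/- mice (log2 fold change 0.65, edgeR FDR 0.577).

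Export pumps for conjugates were examined next, with 8 of 11 tested, 2 higher and 0 lower. *Abcc3*, a pump for glucuronides, had 0.327, 1.89, 5.38 and 2.33 CPM in controls and 25.8, 124.2 and 0.94 CPM in *Notch3*-/- mice (log2 fold change 4.32, edgeR FDR 0.219). *Abcc2*, the canalicular pump, was counted 1, 1, 2 and 0 times in controls and 145, 748 and 4 times in *Notch3*-/- mice, and was not tested. *Abcb4*, the phospholipid floppase of the bile canaliculus, had 30.8, 29.1, 38.6 and 33.9 CPM in controls and 56.9, 134.0 and 22.0 CPM in *Notch3*-/- mice (log2 fold change 1.14, edgeR FDR 0.448). *Abcg2*, a pump for sulfates, had 37.0, 50.5, 55.7 and 34.5 CPM in controls and 44.3, 81.0 and 59.8 CPM in *Notch3*-/- mice (log2 fold change 0.50, edgeR FDR 0.504).

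Of the regulators, 8 of 12 were tested, 3 were higher and 0 lower. The liver factor *Hnf4a* was counted 0, 1, 0 and 0 times in controls and 130, 693 and 2 times in *Notch3*-/- mice. *Nr1i2*, the pregnane X receptor, had no control read and 18, 108 and 0 reads in *Notch3*-/- mice. Both were thus high in the mice with high liver-type members, and neither was tested with all 7 mice. *Cebpa*, a factor of hepatocytes and fat cells, had 0.982, 2.93, 1.40 and 1.66 CPM in controls and 13.96, 28.3 and 1.88 CPM in *Notch3*-/- mice (log2 fold change 3.05, edgeR FDR 0.19). *Rxra*, the partner of many nuclear receptors, had 75.0, 58.5, 55.0 and 69.1 CPM in controls and 87.8, 128.2 and 63.4 CPM in *Notch3*-/- mice (log2 fold change 0.57, edgeR FDR 0.454). *Ahr*, the aryl hydrocarbon receptor, had 11.8, 8.38, 7.49 and 7.64 CPM in controls and 15.3, 20.3 and 8.46 CPM in *Notch3*-/- mice (log2 fold change 0.77, edgeR FDR 0.478).

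The antioxidant regulators had similar levels in the groups. *Nfe2l2*, encoding Nrf2, had 87.7, 150.3, 127.7 and 87.3 CPM in controls and 95.8, 133.8 and 113.6 CPM in *Notch3*-/- mice, a log2 fold change of 0.04 (edgeR FDR 0.971). *Keap1*, its inhibitor, had a log2 fold change of 0.02 (edgeR FDR 0.984). Of 7 Nrf2 target genes outside the families, 7 were tested, 2 were higher and 0 lower. The 2 higher, *Gclc* and *Gclm*, encode the subunits of the enzyme of glutathione synthesis and were also counted in the glutathione list. *Gclc* had 7.20, 9.01, 8.66 and 6.97 CPM in controls and 19.6, 45.8 and 5.83 CPM in *Notch3*-/- mice, and *Gclm* 11.8, 32.9, 18.7 and 18.3 CPM in controls and 29.8, 72.9 and 20.7 CPM in *Notch3*-/- mice. *Nqo1*, the most abundant, had 112.3, 179.6, 186.9 and 147.5 CPM in controls and 93.9, 94.4 and 149.9 CPM in *Notch3*-/- mice (log2 fold change -0.45, edgeR FDR 0.507). Of the deconjugating enzymes, 3 of 4 were in the table and tested, and 0 were higher or lower. Of 14 related conjugation genes outside the symbol rule, 12 were tested, 3 were higher and 0 lower. The zeta-class GST *Gstz1*, an enzyme of tyrosine breakdown, had 94.6, 111.7, 105.3 and 115.9 CPM in controls and 176.6, 332.5 and 102.9 CPM in *Notch3*-/- mice, whereas the mitochondrial kappa-class *Gstk1* had a log2 fold change of -0.09 (edgeR FDR 0.875).

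Sharing of sequence set the limit of what single genes show. Of the 65 members, 20 had no 51-base window in common with another gene and 40 shared under 10%, while 14 shared over 50%, of which 5 lie outside the *Ugt1a* locus: *Gsta1*, *Gstp2*, *Sult2a2*, *Ugt2a1* and *Ugt2a2*. How multi-mapping reads were treated is not stated in the deposited sources. No member exceeded 0.477 counts per exon base in a library, beside a highest value of 1.97 over 39619 genes. Whether read saturation limited the abundant members was not tested.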

How the data were processed

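Bulk RNA was measured in heart tissue of 4 control and 3 *Notch3*-/- mice. The authors deposited raw counts per Ensembl gene for each technical library; the counting program and its treatment of duplicate, multi-mapping and overlapping reads are not given. The 92 spike-in entries were left out and the 3 libraries of each mouse summed. Genotypes were compared with edgeR 4.0.16 (R 4.3.3; filterByExpr, TMM, quasi-likelihood F-test, Benjamini-Hochberg over all tested genes; called at FDR under 0.05 with a fold change of 1.5 or more). SE is the absolute log2 fold change divided by the square root of F. Alternatives were DESeq2 1.42.0, limma 3.58.1 (voom), RLE factors, 2 other filters, leaving out each mouse, and the mice labelled k (controls 3 and 4, all *Notch3*-/- mice). The fits were run on simulated counts of genes well read in controls, with 200 genes changed 4-fold alike in all 3 *Notch3*-/- mice. Such counts hold no split within a group, so they do not test the fits for the division seen here. Ratios from pooled counts carry exact Clopper-Pearson intervals at 95%, and a floor is 3 counts. Exon bases and 51-base windows used GENCODE vM21. Members and lists were chosen with earlier results of these data known. Named with values in each mouse were the 8 liver-type and 5 other members with the highest summed counts, the 10 broadly expressed members highest in mean CPM, the 5 tested members with the smallest p each way and 3 genes of each cofactor, efflux and regulator list; others named were chosen after their values were seen.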

Additional observations from a re-analysis of the deposited data

Results flagged for a closer look

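Of 42 sets of 4 control values examined for a mouse far from the rest, 6 held one; chance gives about 1 in 20 such sets. Control mouse 2 was far above the other controls in *Ugt2b34* (0.419 CPM), in *Ugt2b1* (0.629 CPM), in *Ugt2b5* (1.05 CPM) and in *Gstm3* (0.629 CPM). In these 4 genes the other 3 controls had no read, so any read sets a mouse apart, and the values rest on 2, 3, 5 and 3 reads; the chance rate does not apply to them. Control mouse 2 was also far above the others in the summed lung markers, at 6.92 CPM. Control mouse 3 was far above the others in the summed export pumps, at 348.3 CPM.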

How the results depend on the processing

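Of 14 named genes with a value from the edgeR fit on all 7 mice, 222 values were obtained under the alternatives: 198 kept their direction and side of the threshold, 14 in 5 genes passed it in the same direction, 1 (*Notch3*, -3.29 in the k-labelled mice alone, where fewer samples were compared) no longer passed it, and 9 in 6 genes reversed. The number of members called higher, 0 with all mice, was 22 by DESeq2, 26 without a filter on low counts, and 1 by limma-voom on the 21 libraries, with or without the technical replicate block. In that fit the 3 libraries of a mouse were units tied by a consensus correlation of 0.152 (0.145 with the block); limma-voom on the counts summed per mouse called 0 of 29 members and 0 genes higher, against 55 genes on the libraries. RLE factors and a mean of at least 10 counts gave 0; leaving out each mouse gave 0 to 27, with 27 without *Notch3*-/- mouse 3. The cause was not tested. The number called lower was 0 throughout. At an unadjusted p under 0.05 the number of members higher was 16. It was 29 by DESeq2 (1455 of 28735 genes) and 40 without a filter (1771 of 28790). With a mean of at least 10 counts it was 31 (1326 of 14513). These rises lay partly in members with few control reads. The number was 4 by limma-voom on 7 mice (663 of 14324) and 8 with *Ugt1a* counted once (1051 of 14324, as with all members). Leaving out each mouse gave 13 to 31 (629 of 14649 to 1748 of 15008). The number lower, 1, was 0 in the k-labelled mice (204 of 14872). Leaving out each mouse gave 0 to 2 lower, with 2 without *Notch3*-/- mouse 1 (539 of 14967). Over all genes those fits ranged from 302 of 14370 to 700 of 15008 lower. The liver-type median, 2.15, was 5.51 by DESeq2, 6.35 without a filter and 7.70 with a mean of at least 10 counts. It was 6.81 in the k-labelled mice. In these fits members entered that had failed the filter with all 7 mice, so these medians do not compare with 2.15. In the k-labelled mice 10 liver-type members entered beside the 5, and with a mean of at least 10 counts 18 were tested. In both fits the entering members were those high in *Notch3*-/- mice. The median was 0.016 with *Notch3*-/- mouse 3 alone and 1.73 to 8.16 leaving out each mouse. The 8.16, without *Notch3*-/- mouse 3, was taken over 15 members. Of these, 10 had entered through the 2 *Notch3*-/- mice in which they were high, so it does not compare with 2.15. The broadly expressed median, 0.18, was 0.036 by DESeq2, 0.023 without a filter and -0.072 to 0.38 leaving out each mouse; it turned negative without *Notch3*-/- mouse 2 and, at -0.30, with *Notch3*-/- mouse 3 alone. With that mouse alone *Ugt1a1* reversed to -0.38, *Gsta3* to -0.35, *Gstm1* to -0.35, *Gsto1* to 0.16, *Sult1a1* to -0.21 and *Gstp1* to -0.30. Leaving out each mouse, *Gstm1* ranged from -0.094 to 0.38, *Gsto1* from -0.31 to 0.011 and *Gstp1* from -0.072 to 0.50; each reversed without *Notch3*-/- mouse 2. The cause of the other changes was not tested. Library numbers did not pair the libraries of different mice: the mean correlation of their deviations was -0.014 for the same number and 0.007 for different numbers, 4 of 21 libraries were nearest their own number, and the technical replicate block moved the calls over all genes from 55 higher and 10 lower to 51 and 11.

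With 3 mice against 4, the floor of 3 counts lay between 0.58 and 0.98 CPM in a mouse. Differences in liver-type members below that floor were not detectable, and 17 of 28 had at most 3 counts over the controls. DESeq2 gave no p-value for *Gstt4*, *Sult2a1*, *Sult2a2* and *Sult2a3*. Levels of genes with shared sequence are those of the counting used by the authors.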
